A study of Mus musculus with 36 samples.

Results

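The response described here is the set of genes whose RNA level differed in the same direction, by at least 2-fold, between TGFβ-treated and inhibitor-treated mouse organoids labelled as pancreatic, both without and with doxycycline. Of 18758 genes in the organoid table, 13443 had a mean normalized read count of at least 10 over the 4 libraries and entered the comparison. Of these, 217 were higher under TGFβ in both doxycycline states and 155 were lower in both, 372 genes in all. Brakes of the TGFβ pathway (Pmepa1, Skil, Smad7) and matrix genes (Fbln2, Fn1, Col7a1) were among the higher genes, and mucin, surfactant, late epidermal and detoxification genes were among the lower ones. Organoids are epithelial cell clusters grown in a gel matrix. The 4 organoid libraries belong to a series of 36 samples, 20 of them RNA-seq, on TGFβ and the transcription factor RREB1 in pancreatic cells and embryonic stem cells.

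The organoids carry the tissue label CIY_organoid and the source pancreatic epithelial cells, were grown in pancreatic organoid medium, and the labels give no genotype or strain. The group NoDOX SB received SB505124, an inhibitor of the type I TGFβ receptor kinase, at 2.5 µM for 6 h. The group NoDOX TGFβ received TGFβ at 100 pM for 1.5 h. The groups PlusDOX SB and PlusDOX TGFβ received the same inhibitor and ligand treatments and, in addition, doxycycline at 1 µg/mL from plating. The labels do not say what doxycycline switches on in these cells. Each of the 4 conditions was 1 library, so a difference between them has no replicate check and no p-value is given for it. The control libraries carry an inhibitor rather than no treatment, and inhibitor and ligand were applied for different times, so ligand, inhibitor and time cannot be told apart. The 2 pairs share no library, and a gene found in both was measured in 2 separate comparisons that have this design in common.

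TGFβ binds a pair of serine/threonine kinase receptors, and the type I receptor phosphorylates SMAD2 and SMAD3, which join SMAD4 and act on chromatin together with other transcription factors. The first genes induced include brakes on the pathway itself, such as Smad7, Skil and Pmepa1. In epithelia the pathway is known for matrix deposition, for changes in adhesion and, in some settings, for epithelial-mesenchymal transition (EMT), in which SNAI1, ZEB1 and related factors repress epithelial genes. In the pancreas it is known for growth arrest and cell death in epithelium with an intact pathway.

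Library depth was 32.91 M gene-assigned reads for NoDOX SB, 26.89 M for NoDOX TGFβ, 35.81 M for PlusDOX SB and 23.91 M for PlusDOX TGFβ. Reads per library were recovered from the deposited values, and 3 reads, the floor used for a gene at 0, equal a normalized count of 2.23 to 3.395. Intervals given for single genes are exact 95% counting intervals of the TGFβ over SB505124 ratio, without a pseudocount, and cover counting error only. Unless stated otherwise, values of a gene are normalized read counts in the order NoDOX SB, NoDOX TGFβ, PlusDOX SB and PlusDOX TGFβ, and ratios are log2 of (TGFβ + 1) over (SB505124 + 1), first without and then with doxycycline. "Higher" and "lower" in the organoids mean past 2-fold in both pairs. The label was checked against marker genes. All 8 epithelial and all 9 pancreatic duct markers were measured, with summed levels of 197516 to 253033 and 144802 to 200353, and Pdx1, a pancreatic and duodenal transcription factor, was at 643, 589, 850 and 782. Most of the duct markers, such as Krt7, Krt19, Muc1 and Sox9, are also made by other epithelia. Of 11 measured acinar markers (13 listed) 9 had a mean under 10, as did 8 of 9 endocrine, 7 of 10 fibroblast and stellate, and 5 of 6 endothelial markers. Gcg and Sst were at 0 in all 4 libraries. In bulk RNA, fewer cells of a type and less RNA per cell cannot be told apart.

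A further 14 genes typical of lung epithelium, listed after the values were seen, were also measured in these organoids. Sftpd, a surfactant protein gene, was at 26131, 20196, 8871 and 5582, Sftpb was at 2977, 2225, 2276 and 1214, and Nkx2-1, a lung and thyroid transcription factor, was at 176, 91.4, 164 and 66.8. Of the 13 that passed the filter, all 13 had a ratio below 0 in both pairs. Among them 5 were lower in both, against 1.15% of all genes tested. Scgb1a1, counted among these 5, was at 1.49 and 0 with doxycycline, under the floor. The list's median ratio was -0.95 without and -1.18 with doxycycline, against -0.003 and -0.02 over all genes. Its summed level was 40272 under SB505124 and 28338 under TGFβ without doxycycline, and 20229 and 11796 with it. These levels go against a purely pancreatic identity of the cultures, so the label is doubtful in that respect. The source of these transcripts and their part in the results were not tested.

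Without doxycycline, 479 genes (3.56% of those tested) were at least 2-fold higher under TGFβ and 383 (2.85%) at least 2-fold lower. With doxycycline the numbers were 473 (3.52%) and 435 (3.24%). The 217 genes higher in both made up 1.61% of genes tested, and the 155 lower in both 1.15%. Of the 479 genes higher without doxycycline, 355 (74.1%) were also higher under TGFβ with it, by any amount, and 217 (45.3%) passed 2-fold there. Of the 383 lower without doxycycline, 334 (87.2%) were also lower with it and 155 (40.5%) passed 2-fold. Read the other way, the shared genes were 45.9% of those higher and 35.6% of those lower with doxycycline. Only 45 genes (0.335%) passed 2-fold in opposite directions, 42 of them higher without and lower with doxycycline. Across all 13443 genes the log2 ratios of the pairs had a Pearson correlation of 0.53 and a Spearman correlation of 0.50, given as a description since genes are not independent replicates. The median ratio of all genes was near 0 in both pairs (-0.003 and -0.02).

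**Figure D1:**
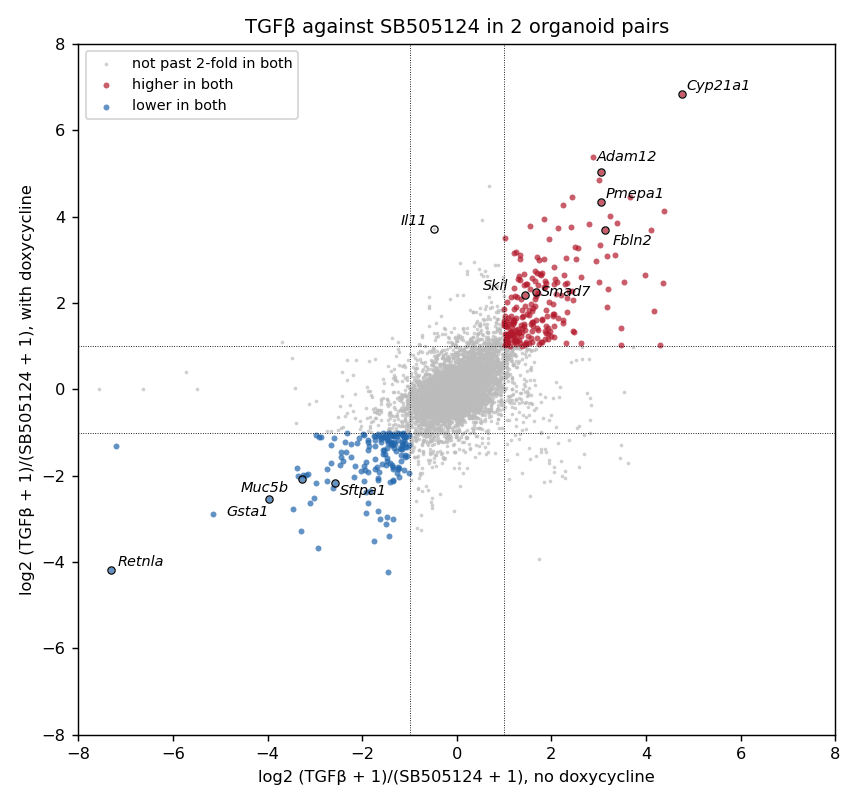
Each point is a gene, with the log2 ratio of TGFβ over SB505124 without doxycycline on the x axis and with doxycycline on the y axis, dotted lines at 2-fold, and gene models without a name and without a call left out. The 217 genes higher in both (red) and the 155 lower in both (blue) fill opposite corners, while Il11 lies above 2-fold only on the y axis.

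Among the 217 genes higher in both, the median ratio was 1.59 without and 1.70 with doxycycline, 43 passed 4-fold in both, and 134 had the larger ratio with doxycycline. The counting interval lay above no change in both pairs for 203 of the 217. Among the 155 lower genes the medians were -1.54 and -1.42, 14 passed 4-fold in both, 59 had the larger difference with doxycycline, and the interval lay below no change in both pairs for 135. The median level over the 4 libraries was 118 for the higher and 81.0 for the lower genes, so the lower set held less abundant transcripts.

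Brakes of the TGFβ pathway were higher under the ligand in both pairs. Pmepa1, which sequesters receptor-activated SMADs, was at 1818, 15006, 796 and 16134, a difference of 8.25-fold and 20.3-fold. Both TGFβ libraries stood far above both inhibitor libraries and close to each other, so the larger fold with doxycycline came with a lower inhibitor value. Skil, which encodes the SMAD corepressor SnoN, was at 1414, 3863, 1147 and 5262 (ratios 1.45 and 2.20). Smad7, the inhibitory SMAD that targets the receptor for degradation, was at 320.5, 1022, 355 and 1710.0 (1.67 and 2.27). Ldlrad4, a membrane protein related to PMEPA1, was at 189, 908, 96.7 and 615. In each of these genes the 2 TGFβ libraries were above the 2 inhibitor libraries.

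Of the 24 genes in the list of SMAD feedback and direct target genes, 23 passed the filter and 8 were higher in both pairs, against 1.61% of all genes tested, with none lower. The others of the 8 were Ltbp2, Pdgfb, Ctgf and Junb. The list's median ratio was 0.66 without and 0.96 with doxycycline. Ski, the relative of SnoN, was just short of the threshold at 3487, 6687, 3256 and 6510 (0.94 and 1.00). Bambi, a decoy receptor, was at 63.1, 58.8, 57.3 and 61.1, with no library standing apart. Cdkn1a, the p21 cell cycle inhibitor known as a TGFβ target in epithelium, had ratios of -0.91 and -0.55, and Cdkn2b, which encodes p15, had 0.48 and 0.56. Tgfbi, a secreted matrix protein, was below the filter.

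**Figure D2:**
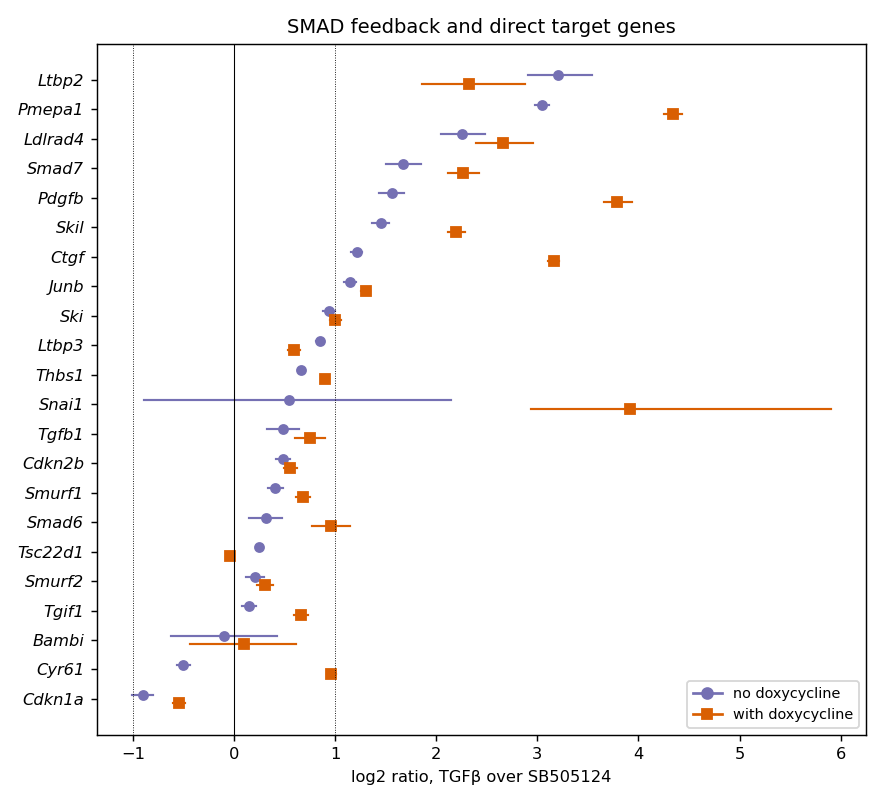
Log2 ratio of TGFβ over SB505124 (x axis) for 22 SMAD feedback and target genes past the filter, circles without and squares with doxycycline, bars the 95% counting interval, dotted lines at 2-fold. Pmepa1, Ltbp2, Ldlrad4, Smad7, Pdgfb, Skil, Ctgf and Junb lie past 2-fold in both, and Snai1 lies past it with doxycycline but not without.

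The receptors and SMADs that carry the signal changed little. None of the 17 members past the filter, of 20 listed, was past 2-fold in both pairs, and the list's medians were 0.12 and 0.20. Tgfbr1, the type I receptor, was at 2833, 3492, 2288 and 3830 (0.30 and 0.74), and Tgfbr2, the type II receptor, at 13127, 9923, 12887 and 11551 (-0.40 and -0.16). Smad3 was at 7589, 7761, 4226 and 5653, and Smad4 at 3224, 3588, 2645 and 3052. For Smad3 and Smad4 the libraries with doxycycline were the lower ones, whatever the treatment. Tgfbr3, the coreceptor betaglycan, had the lowest ratios of the list, at 164, 107, 115 and 36.2 (-0.61 and -1.64).

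Among ligands and the proteins that store or trap them, 3 of 19 were higher in both and 1 was lower. Over all genes tested the shares were 1.61% and 1.15%. Fst, which encodes follistatin, a soluble trap for activins, was at 330.0, 1673, 243 and 1351 (2.34 and 2.47). Fstl1, a secreted follistatin-like glycoprotein, was at 322, 2650, 52.1 and 542 (3.04 and 3.36). Ltbp2, a latent TGFβ binding protein of the microfibril, was at 82.1, 765, 32.7 and 167 (3.20 and 2.32). In all 3 genes the TGFβ libraries lay above the inhibitor libraries, although Fstl1 and Ltbp2 were lower with doxycycline in both arms. The ligand genes themselves moved less: Tgfb1 had ratios of 0.48 and 0.75, Tgfb2 of -0.44 and 0.34, and Tgfb3 of -0.03 and 0.14. Gdf15, a stress-induced member of the superfamily, was lower in both, at 720.4, 141, 5336 and 1966 (-2.35 and -1.44). Its level with doxycycline exceeded that without in either treatment.

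The list of BMP and ID genes contributed a protease and a BMP antagonist. Bmp1, the procollagen C-proteinase that also releases latent ligands, was at 1014, 2901, 871 and 2052 (1.52 and 1.23). Nog, which encodes the BMP trap noggin, was at 21.6, 54.6, 6.70 and 19.2, where the TGFβ library with doxycycline lay below the inhibitor library without it. Those 2 were the only genes past 2-fold in both pairs of 14 BMP and ID genes past the filter. Both were higher, against 1.61% of all genes tested. Id1, a direct BMP target, had 0.48 and 1.17, and Bmp4 -0.97 and -0.82.

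None of the 9 EMT transcription factors past the filter was past 2-fold in both pairs. Snai1 was at 6.91, 10.5, 3.72 and 70.2, so that the PlusDOX TGFβ library stood alone. Its ratio was 0.54 without doxycycline, where the counting interval of -0.89 to 2.15 includes no change, and 3.91 with it (2.94 to 5.91). Zeb1 was at 108, 215, 179 and 299.9 (0.99 and 0.74), with both TGFβ libraries above both inhibitor libraries. Snai2, a relative of Snai1, had -1.92 and -0.44.

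Il11, a fibrogenic cytokine, was at 7.77, 5.25, 1.49 and 31.7, and Has2, a hyaluronan synthase, at 8.64, 17.9, 28.3 and 166. Without doxycycline the interval of Has2 was -0.16 to 2.34. Both genes passed 2-fold with doxycycline and missed it without, Has2 narrowly (0.97), so neither counted as shared. Without the pseudocount, Has2 was 2.07-fold higher under TGFβ in the pair without doxycycline, so its miss depends on the pseudocount. Rreb1 itself was at 2078, 2235, 1657 and 2297 (0.10 and 0.47) and passed 2-fold in neither pair.

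Of the 17 fibrogenic and matricellular genes past the filter 5 were shared, with no gene lower. All 5 were higher, against 1.61% of all genes tested. Ctgf, a matricellular protein, was at 4072, 9422, 2309.9 and 20679.8. Wisp1, of the same CCN family, was at 58.7, 262, 82.6 and 1119 (2.14 and 3.74). Pdgfb, a growth factor for mesenchymal cells, was at 656, 1932, 345 and 4794 (1.56 and 3.79), and Fn1, fibronectin, was at 15103, 52381, 4635 and 29917 (1.79 and 2.69). In all of these the TGFβ libraries exceeded the inhibitor libraries, and the ratio was larger with doxycycline. Fn1 was also the only shared gene among 7 mesenchymal markers past the filter. Vim, the mesenchymal filament vimentin, had 0.72 and 1.03.

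Several matrix genes were among the largest shared differences. Fbln2, fibulin-2, an elastic fibre and basement membrane glycoprotein, was at 1348, 11887, 2015 and 25947 (8.82-fold and 12.9-fold). Col7a1, the collagen of anchoring fibrils, was at 48.4, 464, 39.4 and 651 (9.60-fold and 16.5-fold). Col12a1, a fibril-associated collagen, was at 76.0, 475, 29.0 and 180 (ratios 2.63 and 2.59). Lama3, a chain of the epithelial basement membrane laminin, was at 228, 1214, 305 and 4165 (2.41 and 3.77). For all 4 genes no TGFβ value fell within the range of the inhibitor values. Families were also read from gene symbols, drawn up after the values were seen. Of 22 collagen chains past the filter (of 40 measured) 7 were higher and none lower. Of 31 ADAM and ADAMTS proteases 4 were higher and none lower. These proteases did not move as a unit, with medians of 0.17 and 0.02. Their ratios were above 0 in both pairs for 13 and below 0 in both for 10. Of 38 genes of glycosaminoglycan and proteoglycan synthesis 6 were higher and 1 was lower. Over all genes tested 1.61% were higher and 1.15% lower. The higher collagens were Col4a3, Col4a4, Col7a1, Col8a2, Col9a2, Col12a1 and Col27a1. With doxycycline the counting intervals of Col8a2 (-0.08 to 2.97), Col9a2 (-1.02 to 4.03) and the protease Adamts12 (-0.62 to 4.23) included no change. The protease Adamts18 was at 0 and 4.53 with doxycycline, where its interval began at 0.006. Adam12, a metalloprotease, was at 42.3, 359, 12.6 and 448 (3.06 and 5.04).

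Promoter sequence was read for 4 genes of the higher set, Col7a1, Ltbp2, Fstl1 and Lmcd1, to show what the start regions of leading members hold. RefSeq sequence (GRCm38.p6, the assembly of mm10) of the 250 bases before the start site is given 5′ to 3′ on the strand of the gene, and capitals mark CAGAC, the core of the SMAD-binding element, or its reverse complement GTCTG. The windows are chr9:108953336-108953585 on the plus strand for Col7a1, chr12:84876492-84876741 on the minus strand for Ltbp2, chr16:37776805-37777054 on the plus strand for Fstl1 and chr6:112273508-112273757 on the plus strand for Lmcd1, a LIM domain protein that acts on transcription.
Col7a1: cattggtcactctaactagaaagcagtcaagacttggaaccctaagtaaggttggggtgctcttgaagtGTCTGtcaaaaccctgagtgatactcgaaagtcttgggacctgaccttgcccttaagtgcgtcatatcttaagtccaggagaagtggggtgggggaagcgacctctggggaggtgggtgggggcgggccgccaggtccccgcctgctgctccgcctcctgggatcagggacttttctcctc
Ltbp2: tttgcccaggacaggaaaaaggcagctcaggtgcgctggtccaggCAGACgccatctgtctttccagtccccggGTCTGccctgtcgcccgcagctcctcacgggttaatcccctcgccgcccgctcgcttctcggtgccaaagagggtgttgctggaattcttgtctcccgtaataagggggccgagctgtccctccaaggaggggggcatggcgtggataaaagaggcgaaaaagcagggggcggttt
Fstl1: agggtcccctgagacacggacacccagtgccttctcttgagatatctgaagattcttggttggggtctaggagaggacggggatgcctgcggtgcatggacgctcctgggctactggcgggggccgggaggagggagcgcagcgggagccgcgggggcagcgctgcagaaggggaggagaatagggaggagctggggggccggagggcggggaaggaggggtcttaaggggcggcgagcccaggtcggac
Lmcd1: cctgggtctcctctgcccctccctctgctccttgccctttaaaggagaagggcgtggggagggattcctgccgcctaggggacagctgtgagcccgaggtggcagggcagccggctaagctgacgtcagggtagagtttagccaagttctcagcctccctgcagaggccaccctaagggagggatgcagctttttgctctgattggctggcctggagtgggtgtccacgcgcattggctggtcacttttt
The Col7a1 window holds 1 match, which begins 181 bases before the start, and the Ltbp2 window holds 2, at 205 and 176 bases before it. The Fstl1 and Lmcd1 windows hold none. The Ltbp2 window precedes a transcript start that lies inside the annotated bounds of the gene, so part of it is within the gene. Counting both strands, CAGAC was present in 80 of 186 windows (43.0%) of the genes higher in both and in 57 of 129 windows (44.2%) of those lower in both, with 40.5% for all genes tested and 42.2% for all 32851 windows. GGCGC, the GC-rich form of the element, was in 43.5% of windows of the higher and 24.8% of the lower genes. Its share was 53.8% for all genes tested and 32.0% for all windows, so the higher genes lay between the 2 backgrounds. TGANTCA, the AP-1 site, was in 9.68% and 10.9%, with 4.92% for all genes tested and 6.75% for all windows. Windows were found for 150 of the 217 and 106 of the 155 genes. A match is a description of these letters and not a measured binding site.

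Lmcd1 itself, at 5.18, 106, 7.44 and 109, was near the detection floor in the inhibitor libraries and 20.5-fold and 14.6-fold higher under TGFβ. Tnnt2, a troponin of striated muscle, was at 16.4, 139, 21.6 and 653, Coro6, a coronin that binds actin, at 37.1, 341, 8.93 and 83.7, and Piezo2, a mechanosensitive ion channel, at 688, 4815, 46.1 and 670.0. Tnnt2 kept the TGFβ libraries apart from the inhibitor libraries, and so did Coro6. Piezo2 did not, since its TGFβ level with doxycycline lay under its inhibitor level without it. Ctla2b, one of a near-identical pair of protease inhibitor genes, was at 2.59, 55.7, 33.5 and 216. Cyp21a1, the steroid 21-hydroxylase, had the largest ratio, at 13.8, 400.3, 0 and 113, which is 29.0-fold without doxycycline and at least 50.7-fold with it, taking 3 reads as the level of the library at 0. Both of these belong to duplicated loci, so the split of reads between copies is uncertain.

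**Figure D3:**
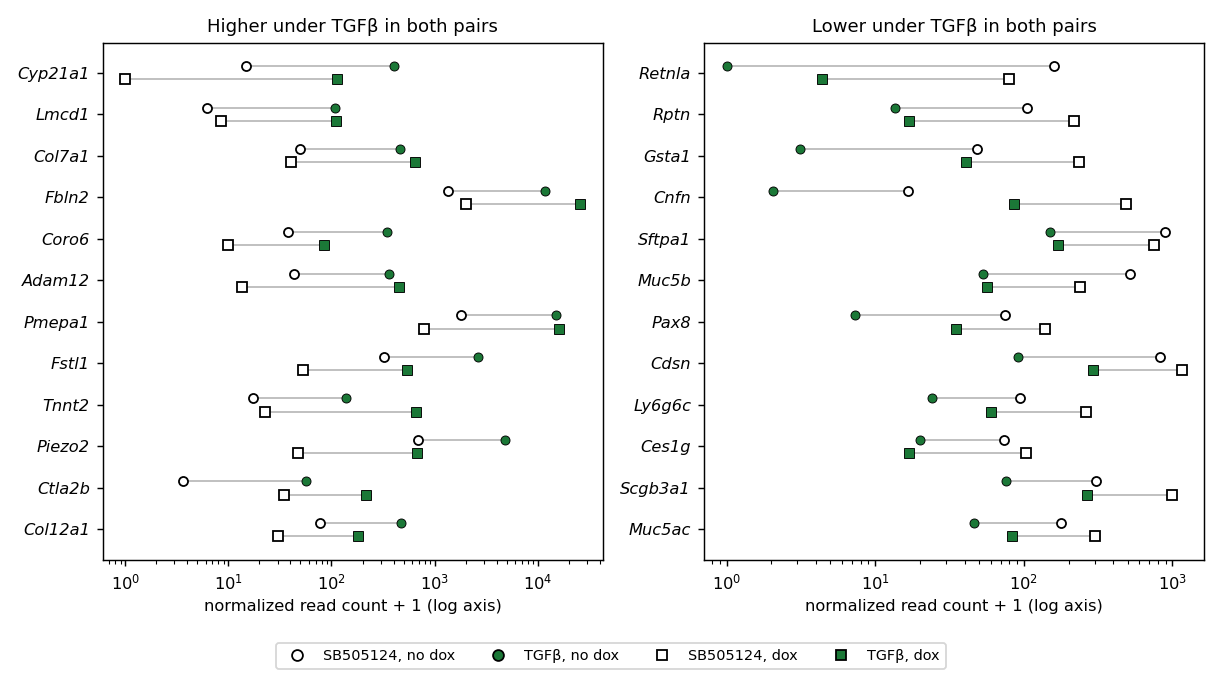
Normalized read count plus 1 (log axis) of the 12 higher and 12 lower genes with the largest change in the pair that changed less, open symbols SB505124 and filled symbols TGFβ, circles without and squares with doxycycline, 1 library each. Every line runs to the right for the higher and to the left for the lower genes, from 1348 to 11887 for Fbln2 without doxycycline and from 516 to 52.5 for Muc5b.

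Some adhesion and protease genes were in the higher set. Of 12 integrin genes past the filter 3 were higher, against 1.61% of all genes tested, and none was lower. The list's medians were 0.67 and 0.96. Itga2, a collagen receptor chain, was at 846, 3119, 1004 and 2773, Itgb5, a partner of the αv chain, at 3530.2, 7428, 1832 and 3868, and Itgb3, another αv partner, at 9.50, 42.0, 9.67 and 35.1. In Itga2, Itgb5 and Itgb3 both TGFβ libraries were above both inhibitor libraries, with the smallest separation for Itgb5. Mmp7, the epithelial metalloproteinase matrilysin, was at 586, 2240, 394 and 1064, and Mmp13, a collagenase, at 89.0, 291, 204 and 466. The third shared metalloproteinase was Mmp12. Among the 34 epithelial junction and keratin genes, all past the filter, only Cldn6, a claudin of early epithelia, was shared, at 898, 1867, 926 and 3744, and it was higher. That list's medians were -0.06 and 0.05. Cdh1, E-cadherin, was at 35536, 40482, 32359 and 37219 (0.19 and 0.20).

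Transcription factors and secreted signals in the higher set covered several families. Junb, an AP-1 subunit, was at 2742, 6069, 4737 and 11671 (1.15 and 1.30), Mycn, of the MYC family, at 166, 507, 143 and 533 (1.61 and 1.89), and Bhlhe40, a repressor of the clock, at 1639, 5316, 957 and 8057 (1.70 and 3.07). Ets1 was at 643, 3028, 1044 and 3159 (2.23 and 1.60). Bhlhe40 and Ets1 were named after their values were seen. Csf1, the macrophage growth factor, was at 3129, 8071, 3363 and 9470.2. Wnt7a was at 183, 672, 423 and 2179, and Wnt9a at 49.2, 140, 52.8 and 291. These were the only shared members of 20 WNT pathway genes past the filter, against 1.61% of all genes tested that were higher. Notch4, a Notch receptor, was at 12.1, 44.1, 12.6 and 28.3. Bmf, a BH3-only activator of apoptosis, was at 1655, 5621, 315 and 2021 (1.76 and 2.68). It was the only shared gene of 20 apoptosis genes past the filter, against 1.61% of all genes tested that were higher. The apoptosis list's medians were 0.003 and -0.04. Ddit4, an inhibitor of mTOR signalling, was at 4023, 11033, 7834 and 16125. In every gene of this group the 2 TGFβ libraries were above the 2 inhibitor libraries.

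The 155 lower genes held secretory, barrier and detoxification genes. Muc5b and Muc5ac encode gel-forming mucins of airway and gastric type. Muc5b was at 516, 52.5, 238 and 55.5 (9.82-fold and 4.29-fold lower), with the 2 TGFβ libraries nearly equal. Muc5ac was at 177, 45.2, 302 and 82.6 (-1.95 and -1.86). Tff2, a trefoil peptide of gastric mucus, was at 1423, 558, 1970.0 and 562, and Agr2, a disulfide isomerase needed for mucin folding, at 206, 79.8, 245 and 56.6. Of 15 genes of the gastric-type mucin, gastrokine and trefoil list past the filter, 5 were lower, against 1.15% of all genes tested. The list's medians were -0.30 and -0.72. The list also held 2 higher genes, of which Ctse, an aspartic protease, was at 33.7, 143, 107 and 583, so it did not move as a unit.

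Surfactant and secretoglobin genes, known from lung epithelium, were in the same set. Sftpa1 was at 890, 148, 756 and 169 (6.01-fold and 4.48-fold lower), Scgb3a1 at 307, 74.6, 988 and 267, and Cxcl15, a chemokine of mucosal epithelium, at 1127, 315, 1208 and 235. All 3 were lower in each TGFβ library than in either inhibitor library. Scgb1a1 was at 147, 0, 1.49 and 0, so its call with doxycycline rests on values at or under the floor. Retnla, a secreted resistin-like protein, was at 158, 0, 78.9 and 3.395, at least 50.2-fold lower without doxycycline and 23.2-fold lower with it. Immune markers had a summed level of 442 to 973, which came from Lyz2 (662, 121, 405 and 216), Cd68 (167, 107, 239 and 197) and Csf1r (140, 201, 77.4 and 203). Ptprc, the marker of all leukocytes, was at 0, 0, 0.744 and 0, at most 1 read in a library. The part of the Lyz2 level in the lower genes was not tested.

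Among the families drawn up by symbol after the values were seen, late epidermal genes had the most lower members. Of 39 such genes measured, 13 passed the filter and 7 of these were lower, against 1.15% of all genes tested. Cdsn, corneodesmosin, was at 826, 90.3, 1152 and 289.7 (9.14-fold and 3.98-fold lower). Rptn, a cornified envelope protein, was at 104, 12.6, 215 and 15.8, and Cnfn, cornifelin, at 15.5, 1.05, 487 and 84.9. Rptn and Cdsn had both TGFβ libraries under both inhibitor libraries. Cnfn rested on a single read in the NoDOX TGFβ library. Of 17 keratins past the filter 4 were lower, Krt4, Krt13, Krt15 and Krt23, the first 3 of them markers of stratified epithelium. The keratins did not move as a unit, with medians of -0.58 without and 0.26 with doxycycline. Their ratios were below 0 in both pairs for 7 and above 0 in both for 2. Of 12 Ly6 family genes past the filter 3 were lower, Ly6d and Ly6g6c among them, against 1.15% of all genes tested. Ly6g6c was at 93.3, 23.1, 260.4 and 58.8.

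Detoxification enzymes, in families drawn up after the values were seen, were among the lower genes, against 1.15% of all genes tested. Of 19 glutathione S-transferases 5 were lower, of 7 carboxylesterases 3, of 11 aldo-keto reductases 2 and of 8 UDP-glucuronosyltransferases 2, with none higher in any of them. Of 31 cytochrome P450 genes past the filter 3 were lower and 1, Cyp21a1, was higher. Gsta1 was at 47.5, 2.10, 236 and 39.6, and Ces1g at 72.6, 18.9, 103 and 15.8. The NoDOX value of Gsta1 under TGFβ was below the floor. These families hold near-identical copies whose reads the counting could split, so single members are uncertain. Pax8, a transcription factor of kidney and thyroid, was at 73.4, 6.30, 138 and 34.0. Aqp1, a water channel of duct cells, was the most abundant named gene of the lower set at 55089.6, 19066, 11825 and 5523 (-1.53 and -1.10), and its level was lower with doxycycline under both treatments.

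**Figure D4:**
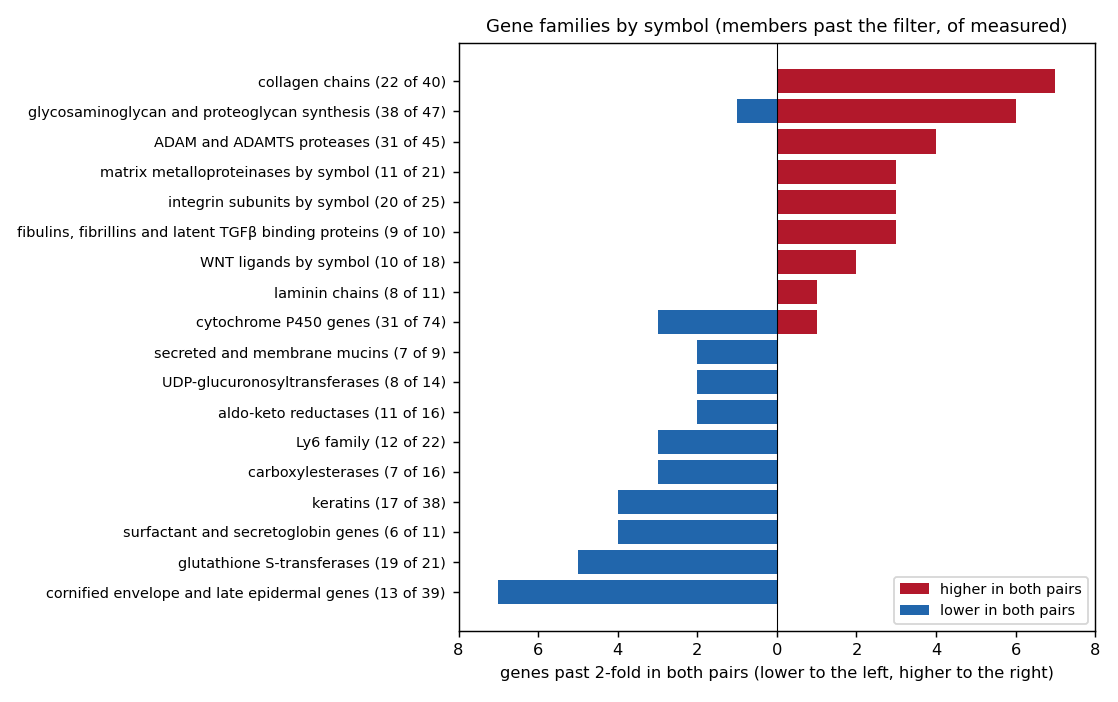
Number of genes past 2-fold in both pairs (x axis, lower to the left and higher to the right) for gene families defined by symbol after the values were seen, with members past the filter of those measured in brackets. Collagens (7 higher), proteoglycan synthesis (6) and proteases lie on the right, and late epidermal genes (7 lower), glutathione S-transferases (5) and keratins (4) on the left.

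Immediate early and ERK output genes were lower in part, although Junb was higher. Egr1 was at 1017, 492, 2798 and 953, Atf3 at 999, 368, 2972 and 1473, and Fosl1 at 8.64, 1.05, 190 and 63.4. These 3 were the only lower genes of 24 immediate early and AP-1 genes past the filter, against 1.15% of all genes tested. Fosl1 rested on 1 read in the NoDOX TGFβ library, with a counting interval of -8.48 to -0.23 in that pair. The ERK list of 20 genes had 3 lower, Egr1, Fosl1 and Ereg, and none higher, with medians of -0.16 and -0.24. Egr1 and Fosl1 thus count in both lists. Ereg, a ligand of the EGF receptor, was at 233, 99.8, 2577 and 1256. For Ereg, Atf3 and Fosl1 the TGFβ library with doxycycline was above the inhibitor library without it, so a lower value under TGFβ held only within a doxycycline state. Ccl20, a chemokine, was at 3846, 1596, 6245 and 2967.

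Several programmes had no shared member or nearly none. Of 23 DNA replication, 22 mitosis, 26 cholesterol and fatty acid synthesis, 21 glycolysis, 21 actin and SRF, 17 ribosome biogenesis and 12 housekeeping genes past the filter, no gene passed 2-fold the same way in both pairs. Mitosis genes had a median of -0.81 without and -0.06 with doxycycline, and glycolysis genes of -0.87 and -0.20. Of 16 YAP and TAZ targets only Ctgf was shared. Interferon-stimulated genes went in opposite directions: 16 of 18 were past 2-fold higher without doxycycline, 11 of 18 past 2-fold lower with it, and the medians were 2.08 and -1.17. Isg15, a ubiquitin-like modifier, was at 687, 3377, 928 and 223.

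At the threshold, among genes with a mean of at least 50 and leaving out unnamed gene models, Rin2 (1.00 and 1.50) and Onecut3 (1.00 and 1.58) were the higher genes just inside it, and Eva1a (0.99 and 1.88) and Dact2 (0.99 and 1.13) those just outside. On the lower side Hopx (-1.005 and -1.28) and Atf3 (-1.44 and -1.01) were just inside, and Fer1l4 (-0.99 and -1.15) and Serpinb2 (-1.81 and -0.98) just outside.

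The shared genes were then read in libraries that had no part in choosing them, the mouse pancreatic ductal adenocarcinoma (PDA) line KSIC_806 labelled WT for RREB1, with 2 libraries under TGFβ (100 pM, 1.5 h) and 2 under SB505124 (2.5 µM, 6 h). The labels also carry an unexplained mark, S4, and they do not say whether the 2 libraries of a group came from separate cultures, so p-values may measure technical spread. Of 169 organoid-higher genes tested there, 109 (64.5%) rose and 8 (4.73%) fell at an adjusted p under 0.05 (limma with Benjamini-Hochberg adjustment), with a median of 0.81 on the log2 scale. Among the 12270 genes tested in both tables, 19.7% rose and 18.2% fell, and the median was -0.002. Of 88 organoid-lower genes tested, 27 (30.7%) fell and 12 (13.6%) rose, with a median of -0.01, so the lower set stood closer to the background. Over the whole PDA table the shares were 19.4% and 17.6%. Of the 23 SMAD feedback and target genes tested there, 17 rose and 2 fell. Without WT TGFβ replicate 2, 3 organoid-higher genes fell instead of 8. The number of genes that rose in the whole PDA table, 2565, was 1333 without WT TGFβ replicate 1 and 1306 without replicate 2.

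Lmcd1 rose in the PDA cells from 11.9 and 7.30 to 220.5 and 224 (log2 fold change 4.43, SE 0.30, adjusted p = 4.7e-05 by limma). Bmf rose from 79.8 and 98.5 to 1636 and 1677 (4.21, SE 0.12, adjusted p = 1.5e-06). Skil rose by 3.34, Smad7 by 2.60, Pmepa1 by 2.32, Col7a1 by 1.51, Ltbp2 by 1.49 and Fn1 by 1.05 on the log2 scale. In each of these genes the 2 groups of libraries did not overlap. Genes that passed 2-fold in the organoids only with doxycycline, Has2 by a narrow margin, rose there as well. Snai1 rose from 6.42 and 10.0 to 1009 and 916, Has2 by 4.99 and Il11 by 4.19. Rreb1 rose by 1.52. Fstl1 was near the detection limit there, at 9.18 and 2.74 against 12.3 and 6.48, and did not pass the test (adjusted p = 0.34 by limma).

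Some shared genes went the other way in the PDA cells. Mmp13 was at 26551 and 21423 under SB505124 and at 1273 and 1335 under TGFβ, a log2 fold change of -4.19 (SE 0.12, adjusted p = 1.5e-06 by limma), whereas it was higher under TGFβ in both organoid pairs. Fst (-1.32) and Wnt7a (-0.40) fell there too. Muc5b (0.83) and Muc5ac (0.95) rose in the PDA cells and were lower in the organoids. Gdf15 and Ccl20, lower in both organoid pairs, fell in the PDA cells. Ccl20 fell by 6.39 on the log2 scale, and Gdf15 was at 12.8 and 51.1 under SB505124 and at 1.64 and 0 under TGFβ, too close to the floor for a fold. In the PDA line Muc5b lay between 26.6 and 57.4, and Muc5ac was at 158 and 143 under SB505124 and at 289 and 293 under TGFβ.

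**Figure D5:**
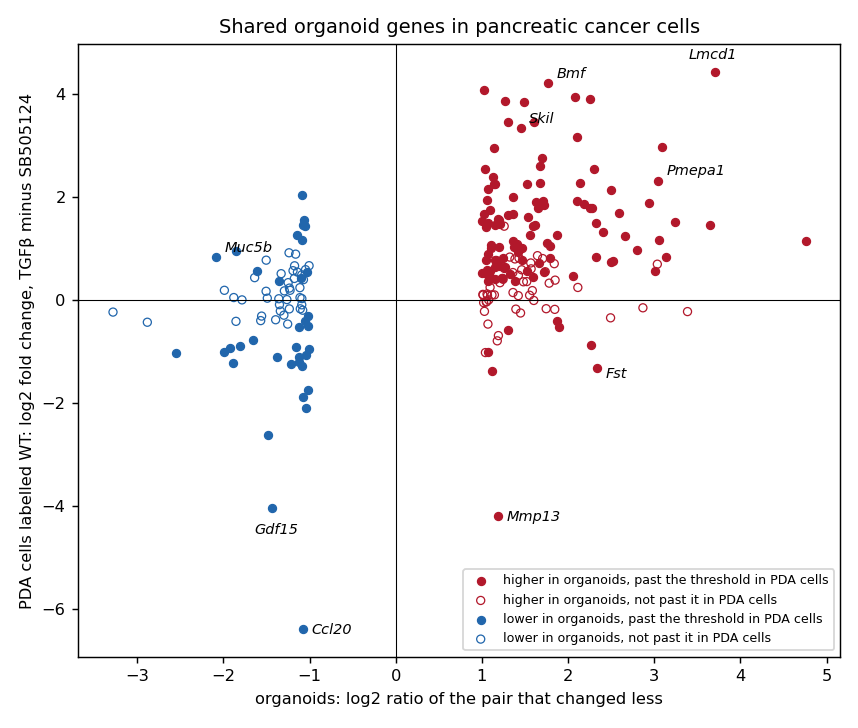
Each point is a shared organoid gene tested in the PDA cells, with the log2 ratio of the organoid pair that changed less on the x axis and the PDA log2 fold change (TGFβ minus SB505124, 2 libraries each) on the y axis, filled where the adjusted p was under 0.05. Organoid-higher genes (red) lie mostly above 0, with 109 of 169 filled and rising, while organoid-lower genes (blue) lie on both sides, with 27 falling and 12 rising.

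Genome positions (mm10, from RefSeq GRCm38.p6) of genes on which these comparisons rest are chr2:173224458-173276731 for Pmepa1, chr3:31095058-31122923 for Skil, chr6:91212460-91272540 for Fbln2, chr9:108953586-108984875 for Col7a1, chr16:37777055-37836516 for Fstl1, chr6:112273758-112330423 for Lmcd1, chr7:141839059-141873089 for Muc5b, chr14:41131788-41136373 for Sftpa1 and chr9:7272514-7283333 for Mmp13. Each value counts reads assigned to the whole gene, and exons were not resolved.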

How the data were processed

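RNA-seq of 4 organoid libraries was analysed, with 8 PDA libraries (4 labelled WT) as a second system. ChIP-seq, ATAC-seq and embryoid body samples were not analysed here. Per the labels' protocols, the RNA (integrity above 9.5) went into a TruSeq preparation that keeps no strand information, so overlapping antisense genes cannot be told apart. The deposited signal was a normalized read count per gene. Tools listed in the submitters' processing notes are HTSeq 0.6.1p1, Bowtie2, DESeq2 3.4, HOMER and FastQC 0.11.5, with build mm10 and with no role or order. Dividing each column by its smallest step gave whole reads for 100% of values (tolerance 0.001).

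Organoid ratios used a pseudocount of 1, a mean of at least 10 and a 2-fold threshold in both pairs. PDA values were tested with limma 3.58.1 (trend, log2 of value + 1, R 4.3.3) over 8 libraries in 4 groups of 2, for 13226 genes with a value of at least 10 in 2 libraries. PDA depth was 20.41 to 44.5 M reads. No replicate block was used. Exact intervals came from scipy 1.17.1. Scripts were tested on simulated data.

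Named genes were a set group (with Rreb1, Smad7, Skil, Pmepa1, Snai1, Has2 and Il11), the 12 largest in each direction by the smaller ratio with a mean of at least 50, up to 4 shared members of each of 32 gene lists with the other members of the SMAD, receptor and ligand lists, and 2 genes on each side of the threshold. The members and lists were chosen with earlier results of these data known, and lists overlap. Gene families, lung genes and some named genes (among them Vim, Cdh1, Zeb1, Snai2, Bhlhe40, Ets1, Id1, Bmp4, Lyz2 and Isg15) were chosen after values were seen. All 372 shared genes matched RefSeq, and 25 table names turned into dates are not named. Some items are not reported here. Alternatives were other pseudocounts, filters, thresholds and scalings, edgeR 4.0.16 and DESeq2 1.42.0 on recovered reads, leaving out a PDA library, and the replicate block.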

Additional observations from a re-analysis of the deposited data

Results flagged for a closer look

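For 7 named genes both organoid pairs differed in one direction and the 2 PDA libraries under TGFβ differed from the 2 under SB505124 in the other. This difference was not tested, since the tables were normalized separately. Higher in the organoids and lower in the PDA cells were Mmp13, with a PDA log2 fold change of -4.19, Fst with -1.32 and Wnt7a with -0.40. Lower in the organoids and higher in the PDA cells were Muc5ac with 0.95, Muc5b with 0.83, Aqp1 with 0.43 and Cdsn with 0.19, the last of which did not pass the threshold (limma). The interferon-stimulated genes moved in opposite directions in the organoid pairs, with a list median of 2.08 without and -1.17 with doxycycline, and this difference has 1 library behind each value and was not tested.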

How the results depend on the processing

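The number of genes higher in both pairs, 217 as reported, became 417 without a filter, 142 at a mean of at least 50, 567 at 1.5-fold and 43 at 4-fold. The number lower in both, 155, became 290, 95, 435 and 14 under the same settings. With a pseudocount of 10 the numbers were 149 higher and 93 lower, and with 0.5 they were 223 and 159. Under other scalings (equal totals, TMM, quantile) between 208 and 215 of the 217 and between 146 and 154 of the 155 kept their call, and the median of all genes moved by at most 0.03. Of 64 named genes with a call, equal totals lost Hopx, TMM lost Atf3, Rin2 and Onecut3, quantile scaling lost Rin2 and Onecut3, and a pseudocount of 10 lost Nog, Fosl1, Notch4, Rin2, Onecut3 and Hopx. Leaving out any PDA library (WT or KO), 83 to 112 organoid-higher genes rose and 3 to 8 fell (3 without WT TGFβ replicate 2), and 18 to 27 organoid-lower genes fell and 8 to 13 rose. With a WT library left out, at most 105 organoid-higher and 11 organoid-lower genes rose. The lone library of a group is assumed to vary like the other groups. With the replicate block, 102 organoid-higher genes rose and 6 fell and 24 organoid-lower genes fell and 9 rose, and over all PDA genes 1943 rose and 1426 fell, against 2565 and 2322 without it. No label says that a replicate number marks a shared batch, and the deviations of same-numbered libraries had a correlation of -0.08 across genes. Over all PDA genes 2108 rose and 1575 fell with the WT libraries alone, 1333 and 921 without WT TGFβ replicate 1, 1306 and 980 without replicate 2, and 2341 and 2697 after quantile scaling, which turned the balance of calls. With a mean of at least 50, an alternative chosen after seeing the data, 68.3% of organoid-higher genes rose and 37.1% of organoid-lower genes fell. Over all genes at that mean the shares were 19.9% and 19.0%. Without the filter on PDA values, 51.0% of 210 organoid-higher genes rose, against 16.6% of all genes. In that setting 18.2% of 143 organoid-lower genes fell, against 14.8% of all genes, so the lower set lay near the background. The cause of these shifts was not tested. No named gene with a call changed sign in the settings run. Depth limits the genes near 3 reads per library.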

Other observations

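Other genes of the shared response, chosen after their values were seen, fall outside the lists. Values are normalized read counts in the order used above. Among the higher genes, Aldh1a2, which makes retinoic acid, was at 365, 1408, 254 and 1031, and Aldh1a3, of the same family, at 62.2, 164, 89.3 and 321. Aldh1a7, a further member, was lower, at 113, 44.1, 116 and 13.6. Igfbp7, a secreted binder of insulin-like growth factors, was at 6026, 18086, 2859.7 and 10059.8, while its relative Igfbp5 was lower, at 2107, 677, 1058 and 282. Gdnf, a neurotrophic factor, was at 6.05, 80.9, 5.21 and 34.0, and Nox4, an NADPH oxidase, at 6.91, 27.3, 17.9 and 96.2. In Aldh1a2, Igfbp7 and Gdnf both TGFβ libraries were above both inhibitor libraries.

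Lower genes with high levels included Pigr, the receptor that carries immunoglobulins across epithelium, at 8813, 3909, 1241 and 430.1, and Olfm4, a secreted glycoprotein of crypt cells, at 1398, 584, 6487 and 1686. Mt2, a metallothionein, was at 11533, 1918, 3764 and 1722. With doxycycline Pigr was lower and Olfm4 higher under both treatments.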
